A study of Drosophila melanogaster with 2 samples.

Results

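The homeotic (Hox) genes of Drosophila melanogaster are 8 members of the homeobox family that lie in a pair of clusters on chromosome arm 3R: lab, pb, Dfd, Scr and Antp in the Antennapedia complex, and Ubx, abd-A and Abd-B in the Bithorax complex. They were taken by name from the Ensembl annotation, where all 8 matched, and are 8 of 13968 protein-coding genes. Every peak with its summit in one of these genes or within 20 kb of it was counted as a peak of the Hox windows. The windows merge to 627 kb and hold 18 of the 5636 reproducible peaks, 135 of the 30000 replicate 1 peaks and 80 of the 30000 replicate 2 peaks. Of the 30000 peaks called on both replicates pooled, 55 lie in the Antennapedia windows and 46 in the Bithorax windows.

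The peaks come from chromatin immunoprecipitation and sequencing (ChIP-seq) of Fer3, a transcription factor of the basic helix-loop-helix (bHLH) class. Both biological replicates are whole embryos of 6 to 24 h from 1 transgenic line in which GFP is joined to the C terminus of Fer3, precipitated with anti-GFP after sonication to between 200 and 800 bp. Both carry the same transgene, come from separate biosamples and form 1 group, so no condition is compared. The promoter that drives the transgene is not given in the sources used here, and an untagged line was not analysed here. Peak lists hold no expression values, so the labelled stage could not be checked with marker genes. The stage is that of the sample source, since a separate age field holds a number of hours that no embryo can have. In whole embryos, a low peak from few cells and weak binding in many cells cannot be told apart.

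Hox genes encode homeodomain transcription factors that give body segments their identity along the head-to-tail axis, and their order on the chromosome follows the order of the segments they pattern. In embryos they are kept silent outside their domains by Polycomb group proteins and kept active inside them by Trithorax group proteins, through long introns and intergenic stretches filled with enhancers, insulators and noncoding transcripts. bHLH proteins bind as dimers to E-boxes, sites of the form CANNTG.

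The sequences under the summits show what kind of DNA carried the reproducible peaks. The 10 windows printed here are the 7 inside a Hox gene and 3 of the 11 outside: the highest peak of the abd-A window, the one with a pair of E-boxes upstream of abd-A, and the highest peak of all 18. Each runs from 50 bases before the summit to 50 after it, read 5′ to 3′ from the plus strand of the RefSeq genome in dm6 coordinates, with E-boxes in capitals.
Antp intron, highest peak in the gene, chr3R:6912497-6912597: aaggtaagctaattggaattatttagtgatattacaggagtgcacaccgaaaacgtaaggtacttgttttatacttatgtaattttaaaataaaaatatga
Antp intron, 210 bp further along, chr3R:6912707-6912807: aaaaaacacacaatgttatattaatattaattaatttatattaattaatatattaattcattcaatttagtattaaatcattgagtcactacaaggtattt
Antp intron, chr3R:6914510-6914610: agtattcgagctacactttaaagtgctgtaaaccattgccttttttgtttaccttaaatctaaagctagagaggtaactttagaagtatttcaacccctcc
Antp intron, chr3R:6920121-6920221: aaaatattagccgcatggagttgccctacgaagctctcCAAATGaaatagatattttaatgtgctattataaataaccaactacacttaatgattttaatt
Antp intron, upstream of the proximal start, chr3R:6936293-6936393: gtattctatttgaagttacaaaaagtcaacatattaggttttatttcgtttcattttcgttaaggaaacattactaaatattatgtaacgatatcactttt
Antp, exon of lncRNA:CR43252, chr3R:6903427-6903527: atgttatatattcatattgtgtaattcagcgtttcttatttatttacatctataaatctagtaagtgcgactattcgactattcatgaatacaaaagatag
Ubx intron, chr3R:16704381-16704481: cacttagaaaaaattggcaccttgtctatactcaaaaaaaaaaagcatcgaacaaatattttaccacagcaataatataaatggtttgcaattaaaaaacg
intergenic, between Ubx and abd-A, chr3R:16798830-16798930: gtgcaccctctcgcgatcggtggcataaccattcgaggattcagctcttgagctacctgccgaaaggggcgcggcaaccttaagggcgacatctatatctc
MSAmiP and lncRNA:iab8 intron, upstream of abd-A, chr3R:16834797-16834897: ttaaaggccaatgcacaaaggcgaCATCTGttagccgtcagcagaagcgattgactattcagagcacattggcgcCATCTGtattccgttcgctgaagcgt
CG18622 promoter, upstream of Abd-B, chr3R:16986627-16986727: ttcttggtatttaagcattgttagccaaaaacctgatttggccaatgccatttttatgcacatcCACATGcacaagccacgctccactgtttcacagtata

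A CANNTG site is in 6 of all 18 windows, 33.3%, against 33.9% of all reproducible windows. Of the 10 printed, 1 of which was chosen for its sites, 3 hold one: 1 of the 6 in Antp, with CAAATG, the MSAmiP window, with CATCTG at both of its sites, and the CG18622 window, with CACATG. The second Antp window is the poorest in G and C of the 18, at 14.9%, and holds the homeodomain core TAATTA. The window between Ubx and abd-A is the richest, at 56.4%. The Ubx window carries a run of 11 A.

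Reproducible peaks, those that passed the authors' threshold on the irreproducible discovery rate, lay inside 2 of the Hox genes, Antp and Ubx. Over the windows their density did not differ from that of the genome beyond counting error. The windows held 2.87 per 100 kb (exact Poisson 95% interval 1.70 to 4.53), against 4.21 over the 6 arms that carry peaks and 4.51 in windows drawn the same way around all genes at least as long as Dfd, the shortest member. Both values lie inside the interval, the second close to its upper bound. The larger lists differed, each having 22.4 peaks per 100 kb over the same arms. In the Hox windows the pooled list held 16.1 (13.1 to 19.6) and replicate 2 held 12.8 (10.1 to 15.9), both lower beyond counting error. Replicate 1 held 21.5 (18.0 to 25.5), within counting error. The Antennapedia windows held 9 reproducible peaks, 2.49 per 100 kb (1.14 to 4.72). The Bithorax windows held 9, 3.39 per 100 kb (1.55 to 6.43), so the complexes did not differ in these beyond counting error. A reproducible summit lay within 20 kb of 5 of the 8 members, against 82.6% of all protein-coding genes and 86.3% of those at least as long as Dfd. The count depends on the list: the 5636 highest peaks of replicate 1 alone put a summit within 20 kb of all 8 members, against 83.0% of all genes, and those of replicate 2 alone of 6, against 81.4%. In replicate 1, Dfd and Scr were reached by the same summit, at 6818608 (rank 4487), and lab only by a summit in the CG1307 promoter (rank 2332). A reproducible summit lay inside 2 of the 8, against 14.3% and 50.9%. None of the 8 had one within 1 kb of an annotated start, against 26.2% and 38.5%. The members and lists were chosen with earlier results of these data known, so these counts stand as descriptions and were not tested.

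**Figure D1:**
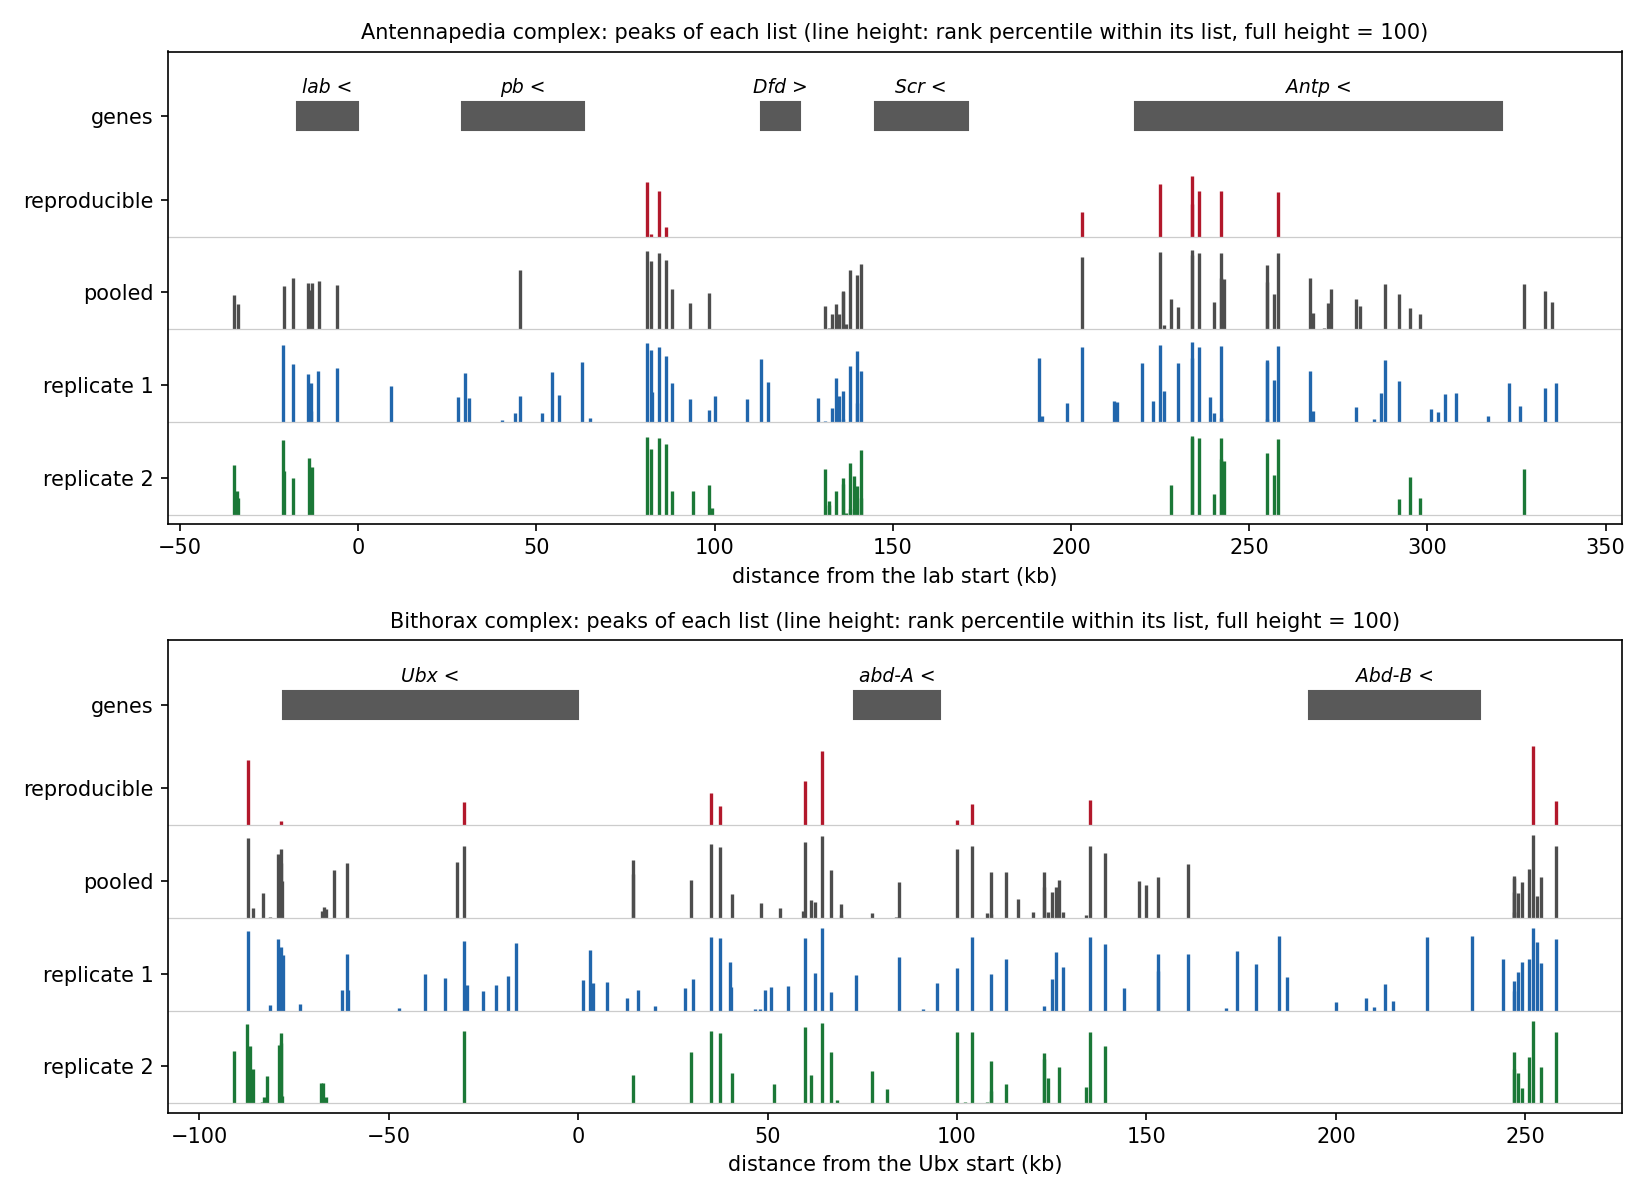
Peaks of each list along the Antennapedia complex (upper panel, distance from the lab start in kb) and the Bithorax complex (lower panel, distance from the Ubx start in kb). Grey bars are the genes, with an arrowhead for the strand, and each line is a summit whose height is its rank percentile in its own list; red lines stand over Antp and 1 over Ubx, none stand over the other 6 genes, and Scr is empty in every list.

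The map of both complexes shows the peaks of each list where they lay. In the Antennapedia complex, red lines gather to the right of pb and in the left part of Antp. In the Bithorax complex they lie between the genes and beyond both outer ones, with 1 over Ubx.

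Antp, which specifies thoracic segments, held the most reproducible peaks of the 8 genes. The gene (FBgn0260642, dm6 3R 6896253 to 6999228, minus strand, 102976 bp) held 6, all also inside the overlapping gene CG46458, and a seventh lay 14451 bp outside it. The 6 summits spanned 32.9 kb, from 6903477 to 6936343, and 62.9 kb of the gene beyond the last of them, which includes the distal starts, held none. The closest pair was 210 bp apart.

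The highest, at 6912547, ranked 1550 of 5636, with the authors' signal value, a peak height on a scale the sources do not define, at 348 in the pooled list, 146 in replicate 1 and 192 in replicate 2. Its neighbour at 6912757 had signal values of 191, 41.3 and 164, in the same order of lists. In replicate 1 that neighbour ranked 6839 and in replicate 2 it ranked 2384, so it stood higher in the second replicate. The summits at 6914560, 6920171 and 6936343 were close to each other in height, with pooled signal values of 244, 246 and 239. Replicate 1 ranked them 2923, 2664 and 2691 and replicate 2 ranked them 2370, 2443 and 2671. Both replicates thus put these 3 intron summits in the same part of their lists. The last of them lies 3503 bp from the nearest Antp start, the shortest distance between a reproducible summit and the start of any member.

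The sixth summit, at 6903477, differed between the replicates. It lies in an exon of lncRNA:CR43252 within Antp and had a pooled signal value of 281 (rank 2105) and a replicate 1 signal value of 99.6 (rank 2284). Replicate 2 listed no peak there, and its nearest summit was 2891 bp away at rank 19387. The same held for the peak outside the gene, at 6881802 in an intron of lncRNA:CR44931 between Antp and ftz, the pair-rule gene fushi tarazu. It ranked 3970 in the pooled list and 2994 in replicate 1, and the nearest replicate 2 summit was 24542 bp away. No other reproducible peak of the windows lacked a replicate 2 peak.

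Near its starts, Antp was the only member with pooled peaks within 1 kb: 4 in the pooled list, 4 in replicate 1 and 1 in replicate 2. The highest, at 6933130, lay 290 bp from a start and ranked 6884, just below the reproducible list, with a deposited −log10 q of 3.29. The replicates placed summits at 6933139 and 6933129, at ranks 7694 and 7905, so both held this start at a similar height. The share of all genes with a pooled peak within 1 kb of a start was not counted. Over the whole gene body Antp held 26 pooled peaks, 29 of replicate 1 and 14 of replicate 2.

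Ubx, which patterns the posterior thorax and the first abdominal segment, held 1 reproducible peak in 77804 bp. The gene (FBgn0003944, 3R 16656623 to 16734426, minus strand) carried it in an intron at 16704431, 29995 bp from the start, at rank 4027. Its signal values were 168 pooled, 52.9 in replicate 1 and 107 in replicate 2, at ranks 5037 and 4069 of the replicate lists. A further 2 reproducible peaks lay beyond the 3′ end of the gene, each in the promoter (within 500 bp of a start) of another gene. The one at 16647188, 184 bp from the start of CG10324 and 9435 bp from Ubx, ranked 1214, with signal values of 406, 160 and 240. The one at 16655890, 228 bp from the start of modSP, a serine protease of the Toll pathway, and 733 bp from Ubx, was near the bottom of the list at rank 5319. At the Ubx start itself the nearest pooled summit was 14363 bp away, and the nearest in any list, 1404 bp away in replicate 1, ranked 18845.

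The region around abd-A, a gene of the abdominal segments (FBgn0000014, 3R 16807214 to 16830049, minus strand), held 4 reproducible peaks, none of them in the gene. The highest, at 16798880, is intergenic, 8334 bp beyond the 3′ end of abd-A and 10569 bp from the start of Glut3, a glucose transporter gene. It ranked 626, with signal values of 618 pooled, 309 in replicate 1 and 302 in replicate 2, and both replicates placed its summit within 10 bp of the pooled one. A lower peak of the same stretch, at 16794418, ranked 2623.

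The other 2 lie upstream of abd-A in introns of MSAmiP and lncRNA:iab8, a long noncoding RNA of the Bithorax complex that is known to repress abd-A in the nervous system. The one at 16837966 had similar ranks in both replicates, 3326 and 4507. The one at 16834847, 4798 bp from the abd-A start, did not: it ranked 4513 in replicate 2, with a signal value of 99.1, and 14661 in replicate 1, with 24.8. Its deposited −log10 q in replicate 1 was 0.604, short of a q of 0.05. This is the window that holds CATCTG at 2 places.

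Abd-B, the gene of the most posterior segments (FBgn0000015, 3R 16927212 to 16972236, minus strand), held no reproducible and no pooled peak in its 45025 bp. Both reproducible peaks of its window lay upstream, in promoters of other genes. The one at 16986677, 173 bp from the start of CG18622 and 14441 bp from Abd-B, was the highest of the 18 at rank 264, with signal values of 958 pooled, 316 in replicate 1 and 625 in replicate 2. The one at 16992010, 132 bp from the start of EMC2B, a gene for a subunit of an endoplasmic reticulum membrane complex, ranked 4006 and lay just inside the window, 19774 bp from Abd-B.

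Replicate 1 differed from the other lists over Abd-B. It held 7 peaks in the gene, where replicate 2 and the pooled list held 0. Those at 16970037 and 16958263, both in introns, ranked 3033 and 3427 in replicate 1. The nearest replicate 2 summits were 11112 bp and 22886 bp away. The pooled list had no summit for 85.8 kb across the gene, from 16895307 to 16981145, and replicate 2 had none for 108 kb.

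The head genes of the Antennapedia complex carried no reproducible peak inside them. pb, which is needed for the mouthparts (FBgn0051481, 3R 6707800 to 6742063, minus strand), had 2 in its window, both beyond its 5′ end at bcd, the maternal gene bicoid. The summit at 6759634, 168 bp from the bcd start, ranked 1925, with signal values of 300 pooled, 137 in replicate 1 and 172 in replicate 2. The one at 6760857 ranked 5467, the lowest of the 18. The next reproducible summit, at 6763056 and 348 bp from the start of Ama, an immunoglobulin superfamily gene, ranked 2560 and lay just outside the window at 20993 bp. Inside pb, the replicates differed: replicate 1 held 9 peaks, replicate 2 held 0 and the pooled list 1.

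lab, which acts in the head and the midgut (FBgn0002522, 3R 6661427 to 6678590, minus strand), had no reproducible peak within 20 kb but held 5 pooled peaks in its body, with ranks from 12615 to 15933. The highest peak of its window was listed by both replicates and was much lower in the pooled list. It lies in the promoter of CG1307, at 6657604 in replicate 1 (signal value 97.9, rank 2332) and at 6657537 in replicate 2 (129, rank 3260), with the summits 67 bp apart. The nearest pooled summit, at 6657766, was 162 bp from the replicate 1 summit and ranked 14340, with a signal value of 54.8. In the windows of the 5 members with a reproducible peak, the highest peaks of the replicates lay within 50 bp of a pooled summit that ranked 1925 or better.

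Dfd, a gene of the maxillary and mandibular segments (FBgn0000439, 3R 6791836 to 6802428, plus strand), and Scr, a gene of the labial segment and the anterior thorax (FBgn0003339, 3R 6823120 to 6849981, minus strand), had no reproducible peak in or near them. Their windows overlap, and most of their peaks lay in the 20.7 kb between them: 12 of the pooled list, 11 of replicate 1 and 13 of replicate 2. This stretch holds mir-10, lncRNA:CR42651 and, next to Scr, 4 genes for the lysine tRNA tRNA:Lys-TTT-2 and 2 for 7SL RNA. The highest pooled summit, at 6819287 and 607 bp from tRNA:Lys-TTT-2-1, ranked 6485, a little below the reproducible list, and replicate 2 had the same summit at rank 6801. The highest of replicate 1, at 6818608, ranked 4487. These tRNA and 7SL genes are near-identical copies, and how reads from such copies were placed is not given in the sources used here.

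Scr was the one member without a summit in its body in any of the 4 lists. No list had a summit for 49.6 kb, from 6819881 to 6869481, which covers the whole gene. Reproducible summits were missing over 117 kb across Dfd and Scr, over 118 kb across lab and pb from the window's edge, over 117 kb across Abd-B and over 65.2 kb across the 5′ part of Ubx.

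**Figure D2:**
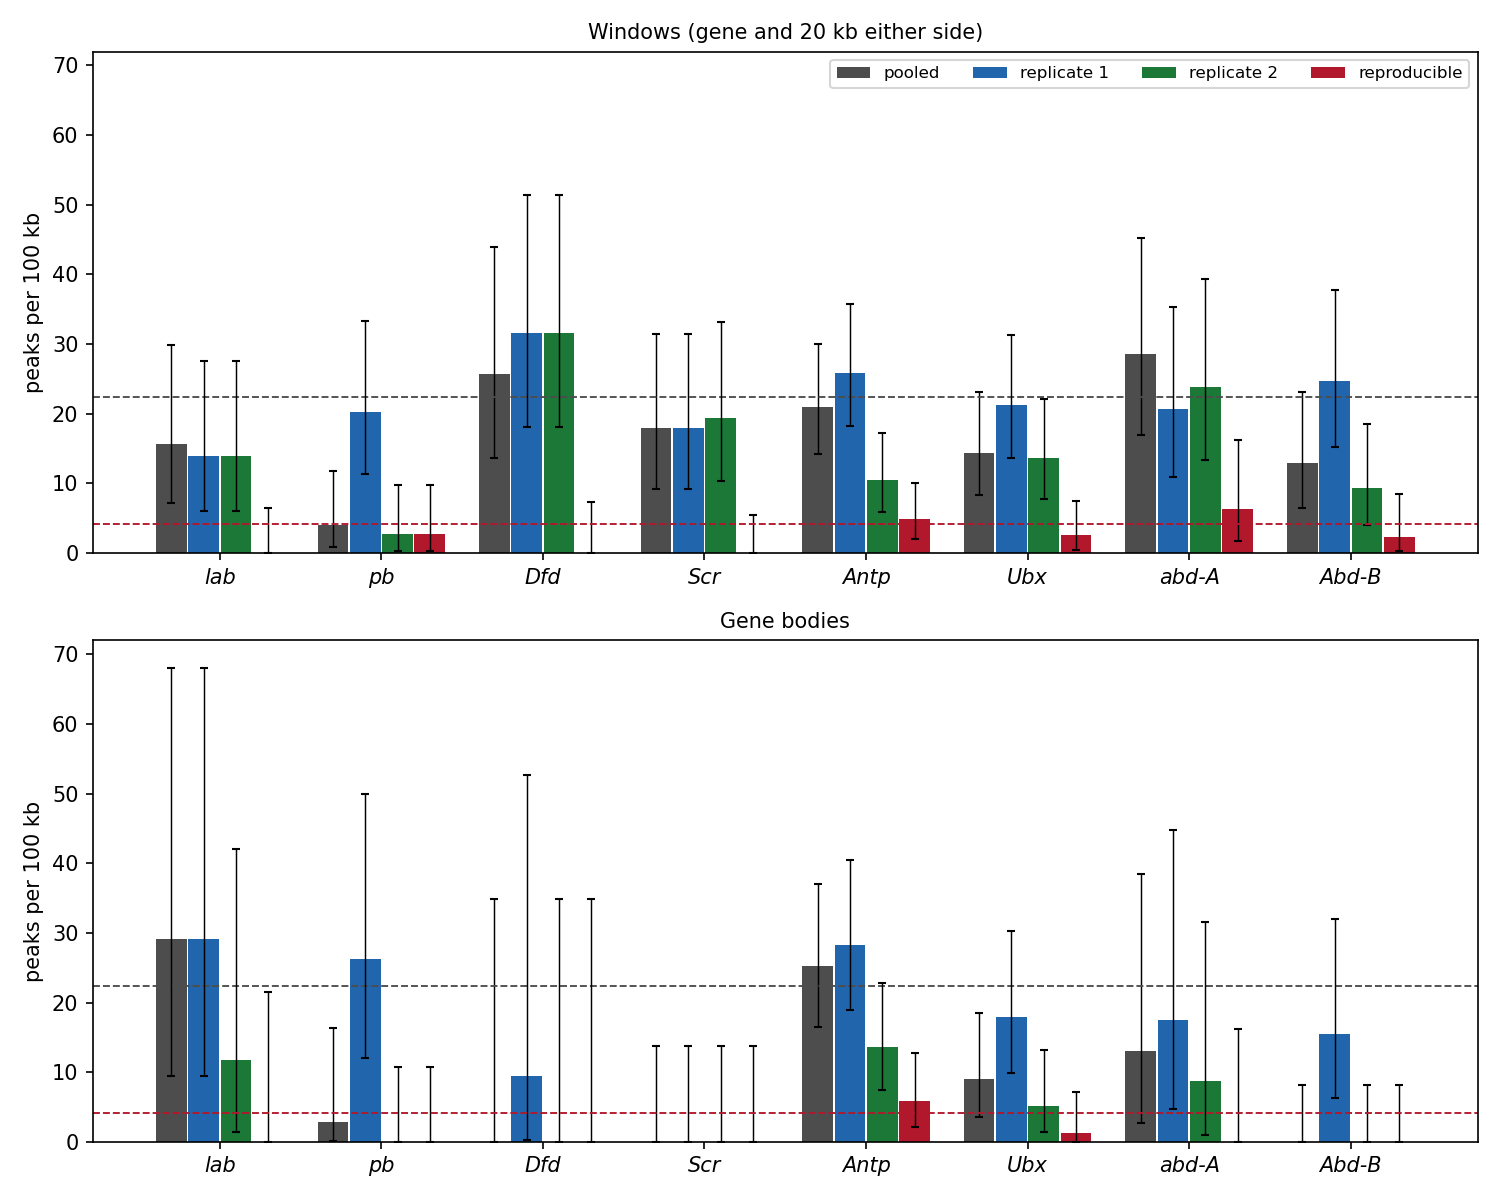
Peaks per 100 kb (vertical axis) in each Hox window (upper panel) and each Hox gene body (lower panel), by list. Bars are counts over length, and error bars are exact Poisson 95% intervals that cover counting error only. Dashed lines are the densities over all arms, 22.4 for the pooled list and 4.21 for the reproducible list. Blue bars stand above green ones in 7 of the 8 gene bodies, and the share over all genes was not counted.

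The plot of densities by gene sets the 4 lists side by side. In gene bodies, replicate 1 (blue) held more peaks than replicate 2 (green) for every member but Scr, where both held 0. Several of these counts are small, such as 1 and 0 for Dfd. The share of all genes with more replicate 1 than replicate 2 peaks was not counted.

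Inside the Hox genes, replicate 1 listed more peaks than replicate 2. Each replicate list holds 30000 peaks, so their densities over all arms are equal, at 22.4 per 100 kb. In the 8 gene bodies, 338 kb, replicate 1 held 69 peaks, 20.4 per 100 kb (15.9 to 25.9), and replicate 2 held 22, 6.52 per 100 kb (4.08 to 9.87), so the intervals did not overlap. In the bodies of all genes at least as long as Dfd the values were 22.6 and 22.4. The ratio of replicate 1 to replicate 2 counts was 3.14 in the Hox bodies and 1.01 in the bodies of those genes. In the whole windows it was 1.69. Among peaks with a deposited q of 0.05 or less the counts were nearly equal in the Hox bodies, 15 in replicate 1 and 13 in replicate 2, and lower in replicate 1 over the windows, 34 against 42. In the bodies of all genes at least as long as Dfd, 3810 replicate 1 peaks and 7831 replicate 2 peaks passed that q. The ratio of replicate 1 to replicate 2 was thus 1.15 in the Hox bodies and 0.487 in the bodies of those genes; this split was chosen after seeing the data. By gene and over all peaks, the body counts in replicates 1 and 2 were 5 and 2 for lab, 9 and 0 for pb, 1 and 0 for Dfd, 29 and 14 for Antp, 14 and 4 for Ubx, 4 and 2 for abd-A, and 7 and 0 for Abd-B. 

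A smaller share of replicate 1 peaks had a replicate 2 peak in the windows than in the whole list. Of the 135, 49 overlapped a replicate 2 peak by at least 1 bp, 36.3% (exact Clopper-Pearson 95% interval 28.2 to 45.0), against 56.3% of all replicate 1 peaks. With a deposited q of 0.05 or less the share was 58.8% (40.7 to 75.4), against 90.9% of all such replicate 1 peaks. Of the 80 replicate 2 peaks, 47 overlapped a replicate 1 peak, 58.8% (47.2 to 69.6), against 59.2%, and at that q 83.3% (68.6 to 93.0), against 74.1%. The gap was also present among high peaks: of the 23 Hox peaks among the 5636 highest of replicate 1, 7 had no replicate 2 peak, 30.4% (13.2 to 52.9), against 4.08% of all 5636. In the other direction all 16 Hox peaks of that rank in replicate 2 had a replicate 1 peak, against 6.46% of 5636 without one. Of the 7, a pair are the reproducible peaks at 6903477 and 6881802 and another pair are the peaks in introns of Abd-B. The others lie in a Ubx intron at 16718174 (rank 5534), in lncRNA:iab8 at 16919232 (rank 3218) and in the promoter of CG18622 at 16987521 (rank 5109). That last one is 651 bp from the nearest replicate 2 summit.

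Of the 18 reproducible peaks, 16 had a peak in both replicates, 88.9% (65.3 to 98.6), against 95.5% of all reproducible peaks. All 18 overlapped a replicate 1 peak with its summit within 50 bp, and 15 had a replicate 2 summit as near. Of the 16 with both, 7 ranked better in replicate 1 and 9 in replicate 2. The share of pooled Hox peaks that were in the reproducible list was 17.8% (10.9 to 26.7), against 18.8% of all pooled peaks. In replicate 1, 25.2% of the Hox peaks had a deposited q of 0.05 or less, against the 29.7% of its whole list. The same shares were 52.5% against 57.5% in replicate 2 and 39.6% against 44.5% in the pooled list. Each whole-list value lay within the interval of the Hox share.

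**Figure D3:**
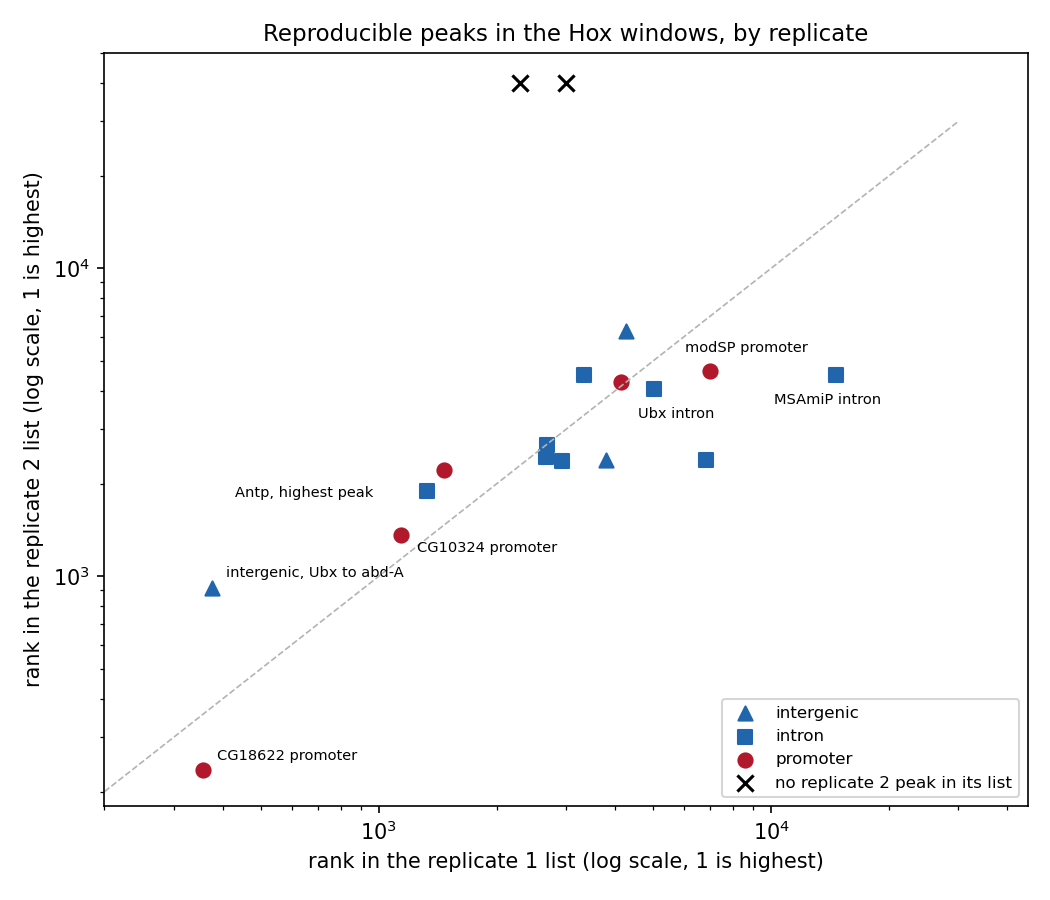
Rank of each of the 18 reproducible peaks in the replicate 1 list (horizontal axis) and the replicate 2 list (vertical axis), both on log scales with 1 the highest. Circles are promoters, squares introns and triangles intergenic summits, the dashed line marks equal ranks, and the 2 crosses at the top are the peaks without a replicate 2 peak; the MSAmiP intron lies farthest to the right, at rank 14661 in replicate 1 and 4513 in replicate 2.

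In the plot of ranks by replicate, the 4 highest reproducible peaks, in the CG18622 promoter, between Ubx and abd-A, in the CG10324 promoter and in the Antp intron at 6912547, ranked 1895 or better in both replicates.

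The reproducible summits of the Hox windows lay more in introns and less in promoters than the list as a whole, within counting error. Introns held 9 of 18, 50% (26.0 to 74.0), against 38.1% of all reproducible summits, a value inside the interval. Promoters held 5 of 18, 27.8% (9.69 to 53.5), against 44.9%, also inside it. All 5 promoters belong to genes that are not Hox genes: bcd, CG10324, modSP, CG18622 and EMC2B. Coding exons held 0 of 18, which allows up to 18.5%, against 0.160% of all. In the larger pooled list the promoter share was 17.8% (10.9 to 26.7) against 26.0%, just inside the interval. The intron share was 57.4% (47.2 to 67.2) against 45.6%, outside it. The windows were drawn around genes longer than most, and how much of their sequence is intron was not measured. Of the 58 pooled intron summits, 22 are in Antp, 7 in Ubx, 5 in lab, 3 in abd-A and 1 in pb, and the others lie outside the members.

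Near 4 other members' starts, replicate 1 alone had a peak. The nearest replicate 1 summit lay 542 bp from the pb start (rank 8320), 545 bp from the Dfd start (7187), 551 bp from an abd-A start (19908) and 235 bp from an Abd-B start (26870). In that order the deposited −log10 q was 1.41, 1.72, 0.375 and 0.214, so those at abd-A and Abd-B fell short of a q of 0.05. The share of all genes with a replicate 1 summit within 1 kb of a start was not counted. Replicate 2 and the pooled list held no summit within 1 kb of a start of these 4 genes. For lab the nearest pooled summit was 1080 bp from a start, at rank 13278, and for Scr it was 29218 bp away.

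**Figure D4:**
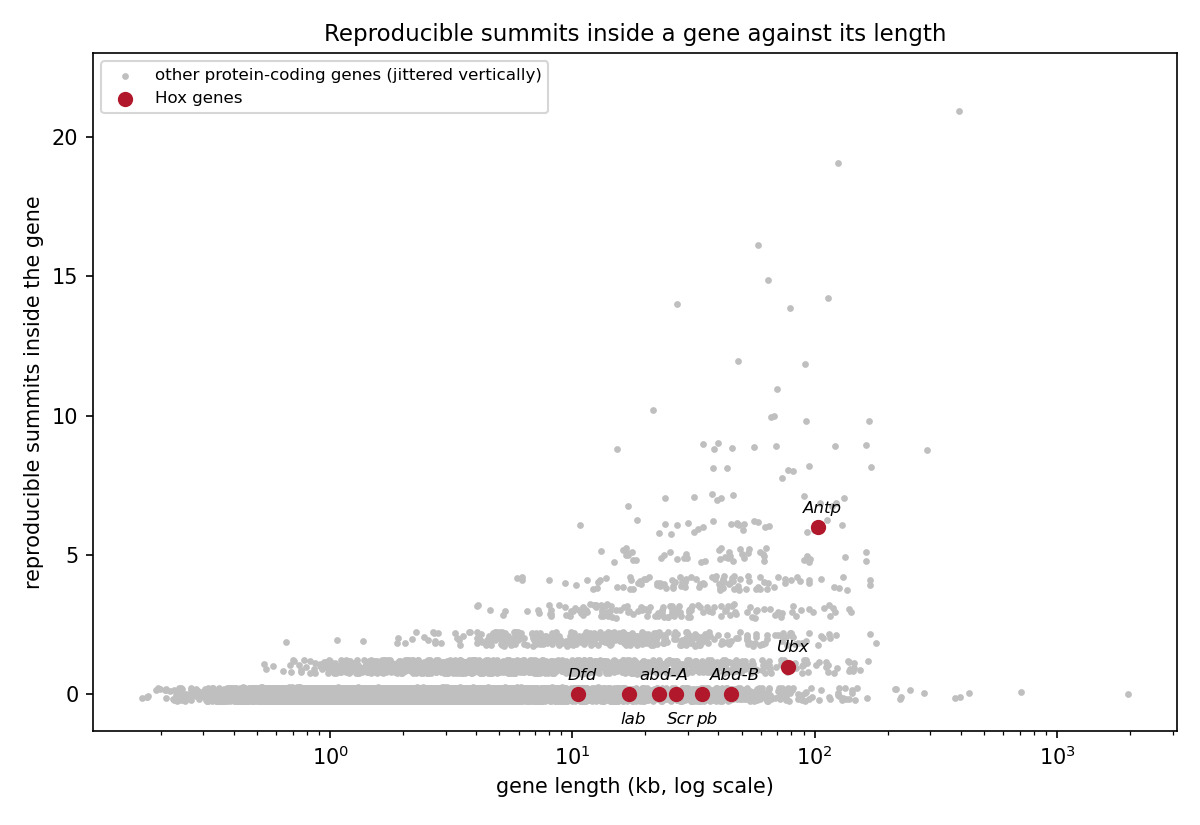
Number of reproducible summits inside each protein-coding gene (vertical axis) against gene length in kb (horizontal axis, log scale), with the 8 Hox genes in red and all others in grey, the grey points moved slightly up or down so that they do not hide each other. Antp lies at 6, Ubx at 1 and the other 6 Hox genes at 0.

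The plot of summits against gene length places the members among genes of their size. Of the 313 protein-coding genes of 50 kb or longer, 205 held a reproducible summit, 65.5%, and the median gene held 1 (quartiles 0 and 4, highest 21). Antp, with 6, was among 39 such genes with 6 or more, and Ubx was among 167 with 1 or 0. Of the 3 genes closest to Antp in length, RhoGEF64C held 2, Cph 1 and Ir41a 0. Of the 3 closest to Ubx, side-VI and para held 0 and shot, a long cytoskeletal linker gene, held 8. Per 100 kb, Antp held 5.83 (2.14 to 12.7) and Ubx 1.29 (0.0325 to 7.16), against 3.58 over the bodies of all genes at least as long as Dfd. Both intervals include 3.58.

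Genes listed here as cofactors, homeotic partners or targets of Hox proteins showed a range from none to many peaks. Of the 9 cofactors and homeotic partners listed, 7 had a reproducible summit within 20 kb, 77.8% against 82.6% of all protein-coding genes, and 4 in the gene, where 14.3% of all genes have one. These genes are longer than most, with a median of 6.84 kb against 2.16 kb for all. Among genes at least as long as Dfd, 50.9% have a summit in the gene. hth, whose protein brings the cofactor Exd into the nucleus, had 10 within 20 kb and 7 in its body, the highest at rank 539 in an intron. ftz-f1, the nuclear receptor partner of Ftz, had 7 and 6, the highest at rank 1837. exd itself had 1, at rank 5387 and 141 bp from the start of Slc25A46a. disco-r had 4 within 20 kb, the highest at rank 290, 242 bp from a start shared by CG42353 and CG42354. hb, a gap gene, had 4, the highest at rank 1669, 14185 bp from hb and 120 bp from a start shared by CG11755 and CG8043. Both genes held 1 in the body, and 1 of those near hb lay within 1 kb of an hb start.

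Of 12 known target genes of Hox proteins, 7 had a summit within 20 kb, 58.3%, against 82.6% of all genes. The highest was at fkh, a target of Scr in the salivary gland, at rank 1154 and 222 bp from its start. CrebA, another salivary gland gene, had 6 summits, the highest at rank 1264 in the promoter of CG7739. The signalling genes dpp and hh had their highest at ranks 2280 and 2251, that of dpp inside the gene. That of hh lay 15246 bp from hh and 193 bp from the start of Cow. Dll, salm, Kr, Cad74A and svp had none. Of 29 other homeobox genes, 19 had a summit within 20 kb, 65.5% against 82.6%, and 3 in the gene, where 14.3% of all genes have one. Their median length was 7.57 kb, against 2.16 kb for all genes. NK7.1 had 14 within 20 kb and 8 in its body, and cad had 10. The highest near C15 (rank 62), eve (rank 21), tin (rank 305) and unpg (rank 306) were closest to the starts of sp3, Pal1, pre-mod(mdg4)-E and Rme-8. A further summit near tin, at rank 681, lay 238 bp from the tin start. The 5 other protein-coding genes listed in the Antennapedia complex, zen, zen2, bcd, ftz and Ama, all had a summit within 20 kb, but 4 of them share the bcd summit as their highest.

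The 18 windows had the base composition and E-box share of the whole list. Their GC content was 33.1% ± 9.80 (SD over 18 windows), against 32.8% ± 9.29 over all 5636. An E-box (CANNTG, which reads alike on both strands) was found in 6 of 18, 33.3% (13.3 to 59.0), against 33.9%. The 8 sites were CAAATG 3 times, CATCTG 3 times, CATTTG once and CACATG once; CAAATG and CATTTG are 1 site read from opposite strands. Of 6 other motifs searched on both strands, GAGAG, part of the site of the GAGA factor that acts at Hox genes, was in 5 windows, 27.8% (9.69 to 53.5), against 8.96% of all. The homeodomain core TAATTA was in 1 of 18 against 11%, and the Hox-Exd site TGATTNAT in 0 against 3.42%. GCCAT, the core of the Pho site, was in 2 against 13.1%, CAGGTA of Zelda in 1 against 2.08% and TATCGATA of DREF in 0 against 1.51%. In these windows the interval left out the value of the whole list for GAGAG and for no other motif. With 100 bases on either side of these 18 summits it did not: GAGAG was then in 33.3% (13.3 to 59.0), against 20.8%. In the shorter windows of the other lists GAGAG was in 16.8% of pooled Hox peaks (10.1 to 25.6), against 11.3%, inside the interval. It was in 20% of those of replicate 1 (13.6 to 27.7), against 11.1%, and in 22.5% of those of replicate 2 (13.9 to 33.2), against 11.5%, both outside it. In the longer windows the whole-list value lay outside the interval in each of these lists. The shares were 32.7% (23.7 to 42.7) against 22.6% for pooled peaks and 31.1% (23.4 to 39.6) against 21.8% for replicate 1. For replicate 2 the share was 35.0% (24.7 to 46.5) against 22.8%. The lists are not separate evidence, since the pooled list was made from both replicates and the reproducible peaks are its highest. Of the motifs searched, only GAGAG is described here for the other lists. A match to these letters describes the window and does not show that a factor was bound.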

How the data were processed

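Both replicates are ChIP-seq of GFP-tagged Fer3 in whole embryos. The authors deposited a peak list for each replicate, made against 1 shared control alignment, a list from pooled alignments and a list thresholded on the irreproducible discovery rate, all on dm6, per the deposited file descriptions. How reads were aligned and peaks called is not given in the sources used here. Both the authors' signal value and the deposited −log10 q of each peak served to describe and order peaks inside 1 list. The reproducible list equals the 5636 highest pooled peaks and has 1 deposited −log10 q, 4.09. No read counts are held, so depth is unknown, and fixed list lengths limit what absence shows.

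Summits were compared with Ensembl release 115 (BDGP 6.54). A promoter is within 500 bp of a protein-coding start. Sequence is from the RefSeq dm6 genome. Intervals are exact Poisson or Clopper-Pearson 95% intervals, cover counting error only, and treat peaks as independent. No test was run: there is 1 group, and the members and lists were chosen with earlier results of these data known. Named genes are the members, genes at their reproducible summits, up to 4 genes of each list with the highest peak, and the 3 genes nearest in length to Antp and to Ubx; other genes were named after their values were seen. Calculations were tested on simulated data and run in Python 3.11.15 with scipy 1.17.1, pandas 2.3.3, numpy 2.4.6 and matplotlib 3.10.9.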

Additional observations from a re-analysis of the deposited data

How the results depend on the processing

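The count of 18 reproducible peaks became 7 in gene bodies only and 10 among the 2818 highest reproducible peaks. Among those 2818 the density fell from 2.87 to 1.59 per 100 kb, the Bithorax density from 3.39 to 1.51 (0.687 in gene bodies), and the median rank percentile rose from 53.8 to 64.3, since fewer or only higher peaks are kept. Members with a summit nearby went from 5 to 3 at 10 kb and to 2 in the gene body. With an overlap of at least 50% of both peaks, the share of reproducible peaks with both replicates went from 88.9% to 55.6%, that of replicate 1 peaks shared from 36.3% to 27.4% and that of replicate 2 from 58.8% to 45.0%; with q at most 0.05 the last 2 were 58.8% and 83.3%. Taking the 5636 highest peaks from a single replicate gave 16 to 23 peaks, 2.55 to 3.67 per 100 kb, 1.93 to 2.76 in the Antennapedia and 3.39 to 4.89 in the Bithorax windows. With replicate 1 alone 8 members, lab, Dfd and Scr included, had a summit within 20 kb, and with replicate 2 alone 6. Dfd and Scr shared the same replicate 1 summit. No member had one within 1 kb of a start in either. The whole complexes, an alternative chosen after seeing the data, held 3.14 per 100 kb. The whole complexes and the other alternatives gave 56 values that stayed inside the 95% interval, within 1 SD (rank and GC content) or within 1.5 times (counts). No paired analysis was possible because there is 1 group. Unknown depth and fixed list lengths limit every count of 0.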

Other observations

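The stretches of both complexes that lie farther than 20 kb from any Hox gene held a few more reproducible peaks. In the Bithorax complex, lncRNA:bxd, a noncoding RNA from the regulatory region upstream of Ubx, held 2, at 16769603 (rank 3424) and 16771787 (rank 4326), and 5 pooled peaks in its 31065 bp. lncRNA:iab8 held 1 in such a stretch, at 16869401 (rank 3928) and 13059 bp from the microRNA genes mir-iab-4 and mir-iab-8, which occupy the same 68 bp. No reproducible summit lay within 20 kb of mir-10 in the Antennapedia complex. In that complex Ama held 2 reproducible peaks, the highest at rank 2560.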
